A study of Mus musculus with 12 samples.

Results

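Lcn2, Saa3, Hp, Cp, Serpina3n, Slc39a14 and Steap4 are 7 genes of the acute-phase response, picked by symbol from the 31208 genes in the deposited table of brain RNA counts. Lcn2 encodes lipocalin 2, Saa3 serum amyloid A3 and Serpina3n a serine protease inhibitor. The other 4 handle hemoglobin and metals: Hp encodes haptoglobin, Cp the copper oxidase ceruloplasmin, Slc39a14 the zinc and iron importer ZIP14, and Steap4 a metalloreductase. The genes were proposed with results from the same mice in view, and the contrast that put each on the list is not recorded. Their values in all 3 comparisons are therefore a description, with standard errors and overlap between mice but without p values.

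All mice were 8-week-old C57BL/6 mice with no genetic change named. The 4 sham mice had no cerebral ischemia, and whether they received an injection is not stated. The other 8 mice had cerebral ischemia by occlusion of the middle cerebral artery and were sampled at 6 h of ischemia. Of these, 4 had received saline vehicle and 4 had received lactate by intracerebroventricular injection before the surgery. The sample labels say lactate, whereas the methods of the study name the D form. The question put to these groups was how additional lactate alters the transcriptome of the ischemic brain. Total RNA from brain tissue was amplified as full-length cDNA and read on a nanopore instrument, so a count is a long read assigned to a gene. Whole tissue was used, and more cells of a type cannot be told apart from more RNA per cell.

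The acute-phase response is a rapid change in gene expression after infection or injury. Interleukin-6 family cytokines act through STAT3, and interleukin-1 and tumor necrosis factor act through NF-kB and C/EBP factors, to induce secreted proteins that bind iron carriers, hemoglobin, lipids and proteases. The liver is the main source in the body, and in the brain astrocytes, endothelial cells, microglia and infiltrating leukocytes are known to express some of these genes. Lcn2 and Serpina3n are widely used as markers of reactive astrocytes, and lipocalin 2 and haptoglobin are also stored in neutrophil granules.

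On the mouse build GRCm38, Lcn2 (ENSMUSG00000026822) spans chr2:32384633-32388252 on the minus strand, Saa3 (ENSMUSG00000040026) chr7:46711998-46715700 on the minus strand, Hp (ENSMUSG00000031722) chr8:109575128-109579172 on the minus strand, and Cp (ENSMUSG00000003617) chr3:19957054-20009145 on the plus strand. Serpina3n (ENSMUSG00000021091) lies at chr12:104406729-104414329 on the plus strand, Slc39a14 (ENSMUSG00000022094) at chr14:70303469-70351425 on the minus strand, and Steap4 (ENSMUSG00000012428) at chr5:7960457-7982213 on the plus strand. Only Cp overlaps another annotated gene, Hps3, which runs on the opposite strand at chr3:19995945-20035315. Since it is not stated whether counting used the strand, reads from the shared stretch of Cp and Hps3 cannot be told apart.

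Promoter windows were found for 5 of the 7 genes in RefSeq (GRCm38.p6), and the 250 bases before the start of Lcn2, Saa3, Serpina3n and Steap4 are shown because these 4 genes had the highest lactate-to-vehicle ratios of the set. Each is written 5′ to 3′ on the strand of its gene, and capitals mark matches on either strand to the letters GGGA and CC with any 4 bases between them (NF-kB), TTNNGNAA (C/EBP) or TTCNNNGAA (STAT). The windows are chr2:32387740-32387989 (minus strand) for Lcn2, chr7:46715677-46715926 (minus strand) for Saa3, chr12:104406458-104406707 (plus strand) for Serpina3n and chr5:7960222-7960471 (plus strand) for Steap4.
Lcn2: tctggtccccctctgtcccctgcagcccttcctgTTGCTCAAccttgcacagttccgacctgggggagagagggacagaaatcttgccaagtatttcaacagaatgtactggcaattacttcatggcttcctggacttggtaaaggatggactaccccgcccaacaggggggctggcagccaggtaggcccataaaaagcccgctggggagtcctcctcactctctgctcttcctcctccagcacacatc
Saa3: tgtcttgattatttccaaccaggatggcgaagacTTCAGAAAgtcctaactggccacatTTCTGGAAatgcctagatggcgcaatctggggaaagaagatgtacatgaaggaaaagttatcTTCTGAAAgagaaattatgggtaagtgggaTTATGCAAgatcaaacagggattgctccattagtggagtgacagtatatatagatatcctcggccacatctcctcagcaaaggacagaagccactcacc
Serpina3n: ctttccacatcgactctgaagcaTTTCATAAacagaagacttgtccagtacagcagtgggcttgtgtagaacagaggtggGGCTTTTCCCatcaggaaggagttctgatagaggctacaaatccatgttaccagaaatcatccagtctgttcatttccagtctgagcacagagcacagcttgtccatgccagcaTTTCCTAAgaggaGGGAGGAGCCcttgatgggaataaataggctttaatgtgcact
Steap4: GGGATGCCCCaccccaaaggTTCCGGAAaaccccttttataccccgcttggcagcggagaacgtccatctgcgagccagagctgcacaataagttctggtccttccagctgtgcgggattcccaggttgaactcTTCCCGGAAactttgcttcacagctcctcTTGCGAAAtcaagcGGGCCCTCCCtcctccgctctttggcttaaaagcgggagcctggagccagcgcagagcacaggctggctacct
The starts are those of RefSeq, and for Lcn2, Saa3 and Steap4 they lie inside the longer gene span of the GENCODE annotation given above.

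The windows differed in what they hold. Lcn2 had 1 C/EBP match, at -216 from the start, and none of the other motifs. In Saa3 there were 4 C/EBP matches, at -216, -191, -129 and -99, and 4 or more occur in 0.591% of the 32851 windows of this length in the table. Serpina3n had NF-kB matches at -170 and -43 and C/EBP matches at -227 and -56. Steap4 was the only one of these with all 3 motifs, which 0.414% of windows hold, with NF-kB matches at -250 and -73, C/EBP matches at -230 and -87 and a STAT match at -116. Cp has 2 RefSeq windows, with 1 C/EBP match in each and 1 NF-kB match in the one nearer to the gene body. No match overlapped another. At least 1 match was found in 17.6% of all windows for NF-kB, 36.8% for C/EBP and 7.02% for STAT, so single matches are common, and a match is not evidence of binding.

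Lcn2 was nearly absent from sham brains and present in every ischemic mouse, at a higher level with lactate. Sham mice 1 to 4 held 0, 0, 0 and 2 counts, vehicle-treated mice 265, 174, 173 and 186, and lactate-treated mice 339, 375, 331 and 356. In CPM, the reads of a gene relative to all reads of the library, vehicle-treated mice were at 24.8, 22.5, 21.5 and 27.3, and lactate-treated mice at 45.8, 44.9, 43.6 and 41.3. The 3 groups did not overlap, and the lowest lactate-treated mouse was well above the highest vehicle-treated mouse. In both ischemic groups the mice were close together, with means of 24.0 ± 2.56 CPM after vehicle and 43.9 ± 1.98 CPM after lactate (SD, n = 4 each) and coefficients of variation of 10.7% and 4.50%. With 2 sham counts in all, both in sham mouse 4, the ratio of summed counts to sham was 384 for vehicle (95% exact Clopper-Pearson interval 106 to 3179) and 702 for lactate (194 to 5803). Without sham mouse 4 the other sham mice held 0 counts, the lower limits of these intervals were 155 and 284, and the fitted log2 fold changes were 10.64 and 11.46 in place of 8.30 and 9.16. Between the ischemic groups the ratio was 1.83 (1.67 to 2.00), and the fitted log2 fold change was 0.85 (standard error 0.14). These intervals, and those of the other genes, come from counts summed over mice and leave out the variation between mice. They can also understate the counting error, since PCR reads without molecular identifiers are not independent molecules.

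Saa3, which encodes a serum amyloid A made outside the liver, was not detected in any sham mouse, which at these depths allows up to 0.407 CPM. Vehicle-treated mice 1 to 4 held 3, 4, 9 and 9 counts (0.281, 0.518, 1.12 and 1.32 CPM), and lactate-treated mice 9, 26, 28 and 29 (1.22, 3.11, 3.69 and 3.36 CPM). Lactate-treated mice 2 to 4 were above all vehicle-treated mice, whereas mouse 1 fell within the vehicle range. The mean was 0.810 ± 0.491 CPM after vehicle and 2.85 ± 1.11 CPM after lactate (SD, n = 4 each). Over a floor of 3 counts per library, the level was at least 1.99-fold higher than sham with vehicle and at least 6.99-fold higher with lactate. The ratio of summed counts between lactate and vehicle was 3.83 (2.44 to 6.22), with a fitted log2 fold change of 1.83 (standard error 0.49).

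Serpina3n was present in sham brains and separated all 3 groups. Its level was 4.09, 5.02, 7.33 and 5.43 CPM in sham mice 1 to 4, from 31, 45, 54 and 44 counts. Vehicle-treated mice were at 18.3, 8.94, 12.4 and 23.8 CPM (195, 69, 100 and 162 counts), and lactate-treated mice at 29.3, 31.0, 32.0 and 67.6 CPM (217, 259, 243 and 583 counts). No mouse of one group reached the range of another, but lactate-treated mouse 4 stood far above the other 3. The means were 5.47 ± 1.37, 15.9 ± 6.53 and 40.0 ± 18.4 CPM (SD, n = 4 each). Fitted log2 fold changes were 1.57 (standard error 0.31) for vehicle over sham, 2.90 (0.29) for lactate over sham and 1.31 (0.34) for lactate over vehicle. The lactate over vehicle value was 0.94 without lactate-treated mouse 4, the lowest among the alternatives run.

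Cp encodes a ferroxidase that oxidizes iron as it leaves cells. Sham mice 1 to 4 were at 6.59, 7.58, 3.67 and 4.56 CPM (50, 68, 27 and 37 counts), vehicle-treated mice at 13.4, 15.7, 14.2 and 15.8 CPM (143, 121, 114 and 108 counts) and lactate-treated mice at 14.6, 15.8, 17.0 and 22.0 CPM (108, 132, 129 and 190 counts). Every ischemic mouse was above every sham mouse, and the ischemic groups overlapped, with 2 lactate-treated mice above the highest vehicle-treated mouse. The log2 fold change was 1.42 (standard error 0.24) for vehicle over sham and 1.65 (0.23) for lactate over sham. Between the ischemic groups it was 0.21 (0.18), little more than its own error, and the interval of the count ratio, 1.06 to 1.35, leaves out the variation between mice.

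Hp, whose product binds free hemoglobin, was very low throughout. Counts were 1, 0, 0 and 0 in sham mice 1 to 4, 2, 9, 17 and 1 in vehicle-treated mice and 6, 7, 8 and 6 in lactate-treated mice. On the CPM scale the vehicle-treated mice lay at 0.187, 1.17, 2.12 and 0.147 and the lactate-treated mice at 0.811, 0.838, 1.05 and 0.696, and the highest sham mouse at 0.132. Vehicle-treated mouse 4 and sham mouse 1 held 1 count each, so these groups overlapped in counts, while the lactate-treated mice were all above sham. The means were 0.904 ± 0.935 CPM after vehicle and 0.850 ± 0.150 CPM after lactate (SD, n = 4 each), while the coefficient of variation was 103% with vehicle and 17.6% with lactate. All lactate-treated mice fell inside the range of the vehicle-treated mice. The count ratio to the single sham count was 27.9 (4.63 to 1141) with vehicle and 27.1 (4.46 to 1108) with lactate, and that of lactate to vehicle was 0.969 (0.552 to 1.70). Vehicle-treated mouse 3 held 17 of the 29 vehicle counts, and without it the ratio of vehicle to sham was 15.2 (2.26 to 652) and that of lactate to vehicle 1.78 (0.870 to 3.85).

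Slc39a14 gave 1.45, 1.45, 1.90 and 2.34 CPM in sham mice 1 to 4 (11, 13, 14 and 19 counts), 5.34, 2.20, 3.36 and 3.37 CPM in vehicle-treated mice (57, 17, 27 and 23 counts) and 2.57, 6.11, 6.20 and 3.01 CPM in lactate-treated mice (19, 51, 47 and 26 counts). Vehicle-treated mouse 2 fell within the sham range, and the lactate-treated mice formed a lower and a higher pair that spanned most of the vehicle range. Log2 fold changes were 1.04 (standard error 0.34) for vehicle over sham, 1.35 (0.34) for lactate over sham and 0.28 (0.37) for lactate over vehicle. The ratio of summed counts between the ischemic groups was 1.20 (0.937 to 1.54).

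Steap4, which reduces ferric and cupric ions before their uptake, was also near the limit of counting. Sham mice 1 to 4 held 2, 0, 0 and 1 counts, vehicle-treated mice 6, 3, 2 and 5, and lactate-treated mice 5, 6, 10 and 11. These are 0.264, 0, 0 and 0.123 CPM, then 0.562, 0.389, 0.249 and 0.734 CPM, and then 0.676, 0.719, 1.32 and 1.28 CPM. Lactate-treated mice did not overlap with sham, vehicle-treated mouse 3 did, and 2 lactate-treated mice were above all vehicle-treated mice. Against sham the count ratio was 5.14 (1.47 to 27.5) with vehicle and 10.7 (3.34 to 54.6) with lactate, and between the ischemic groups it was 2.08 (1.11 to 4.06). Without sham mouse 1, which held 2 of the 3 sham counts, the ratios to sham were 11.8 (1.83 to 493) and 24.5 (4.09 to 997). With a mouse left out, the ratio of lactate to vehicle was 1.80 to 2.41, and its interval reached below 1 without vehicle-treated mouse 3 or lactate-treated mouse 3 or 4. The intervals leave out the variation between mice, so where they lie against 1 is not a test of lactate against vehicle.

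**Figure D1:**
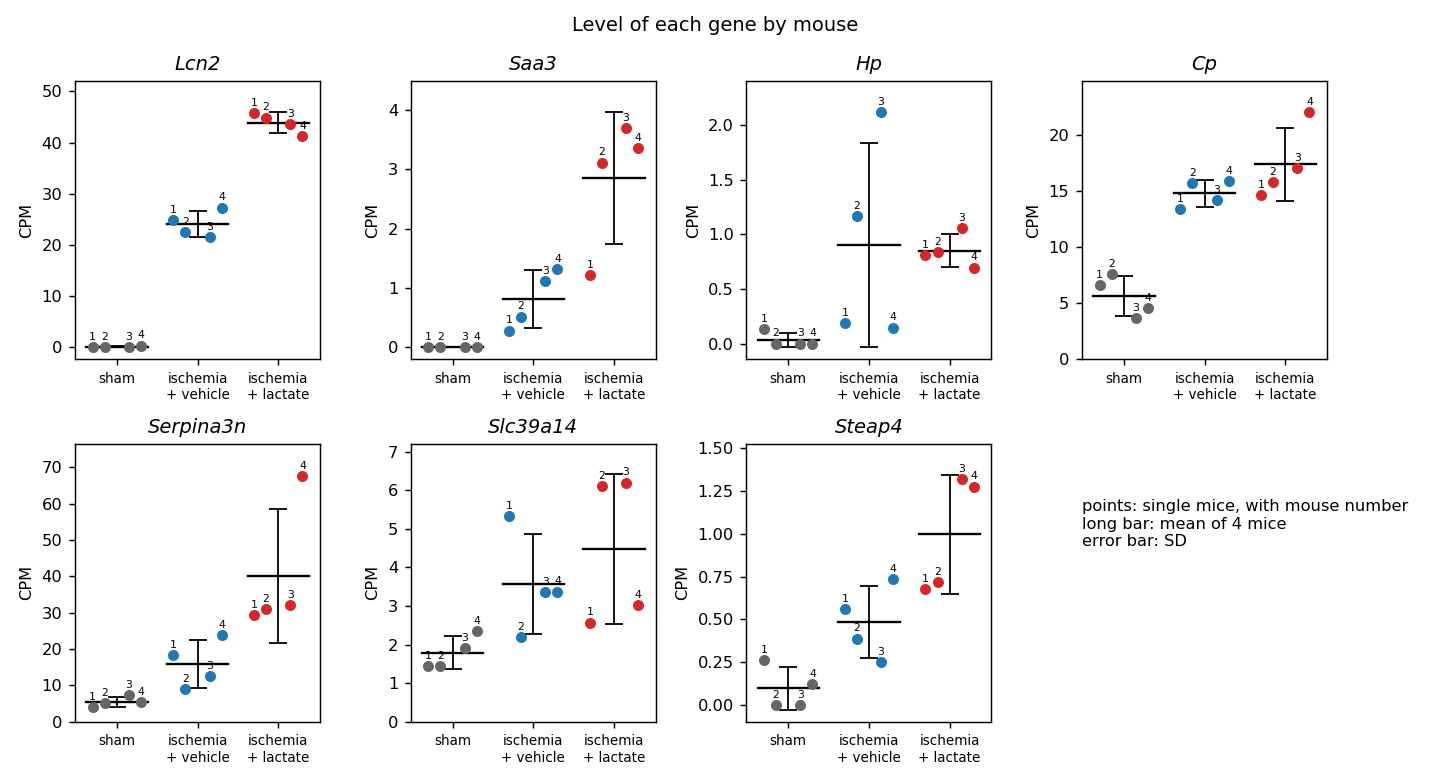
Level of the 7 genes in single mice in CPM on a linear axis, with points numbered by mouse, a long bar for the mean and an error bar for the SD (n = 4 per group). The groups are apart from each other for Lcn2 and Serpina3n, whereas the lactate-treated mice lie inside the vehicle range for Hp.

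Mean levels ran from sham over vehicle to lactate for 6 of the 7 genes, and for Hp the 2 ischemic means were side by side. CPM is not divided by transcript length, so levels are not compared between genes. Lcn2 and Serpina3n were the 2 genes in which neighboring groups in that order were apart in every mouse. For Cp, sham and vehicle were apart but the ischemic groups overlapped. The ischemic groups also overlapped for Saa3, and its vehicle and sham mice were apart in counts, with vehicle-treated mouse 1 at the floor of 3 counts. For Hp, vehicle and sham tied at 1 count and the ischemic groups overlapped. For Slc39a14 and Steap4, vehicle overlapped with both neighbors.

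Against sham, all 7 genes were without overlap in lactate-treated mice, and Lcn2, Cp and Serpina3n in vehicle-treated mice. Saa3 was also without overlap in counts with vehicle. However, vehicle-treated mouse 1, at 0.281 CPM, lay below the 0.407 CPM that 0 sham counts allow. Among the genes with enough counts for the fit, those without overlap were 5 of 5 with lactate and 3 of 4 with vehicle. Of all genes tested, 10.4% and 4.14% were higher without overlap. A gene was called when it passed an adjusted p of 0.05 and differed by 1.5-fold or more. With vehicle, 3 of the 4 genes tested were called higher (Lcn2, Cp and Serpina3n), as were 1.29% of the 17019 genes tested, and 0.182% were lower. The call of Serpina3n was lost without sham mouse 1, 2 or 4. Slc39a14 joined them at an unadjusted p under 0.05, a limit that 6.5% of genes passed upward. With lactate, all 5 genes tested were called higher, as were 7.88% of 17262 genes, and 2.51% were lower. The call of Slc39a14 was lost without sham mouse 1, 2 or 3 or lactate-treated mouse 2 or 3. At an unadjusted p the same 5 passed, as did 11.9% of genes. Without a filter on low counts all 7 genes were called with lactate, with 6.08% of all genes, and 4 with vehicle, with 1.09%. Hp and Steap4 were too low to be tested in either comparison and Saa3 in the one with vehicle. Lcn2 and Saa3 passed the filter on low counts only through the ischemic mice. These counts follow from how the genes were chosen. Both comparisons also share the sham mice.

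Lactate-treated against vehicle-treated brains gave 0 called genes among the 5 tested by the quasi-likelihood test of edgeR, where 0.0% of 17419 genes were called higher and 0.00574% lower. At an unadjusted p under 0.05 and the same fold change, 3 were higher (Lcn2, Saa3 and Serpina3n), as were 3.76% of all genes, and 2.47% passed downward. Saa3 was below 1 CPM in vehicle-treated mice 1 and 2, so it passed the filter on low counts only through the lactate-treated mice. DESeq2's adjusted test called Lcn2 and Serpina3n, 2 of the 5, as it did 0.287% of all genes. The same 2 were the genes without overlap, as were 2.99% of genes tested. Cp and Slc39a14 passed neither limit, and Hp and Steap4 were not tested. The direction of all 5 fitted values was upward in the alternatives run.

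**Figure D2:**
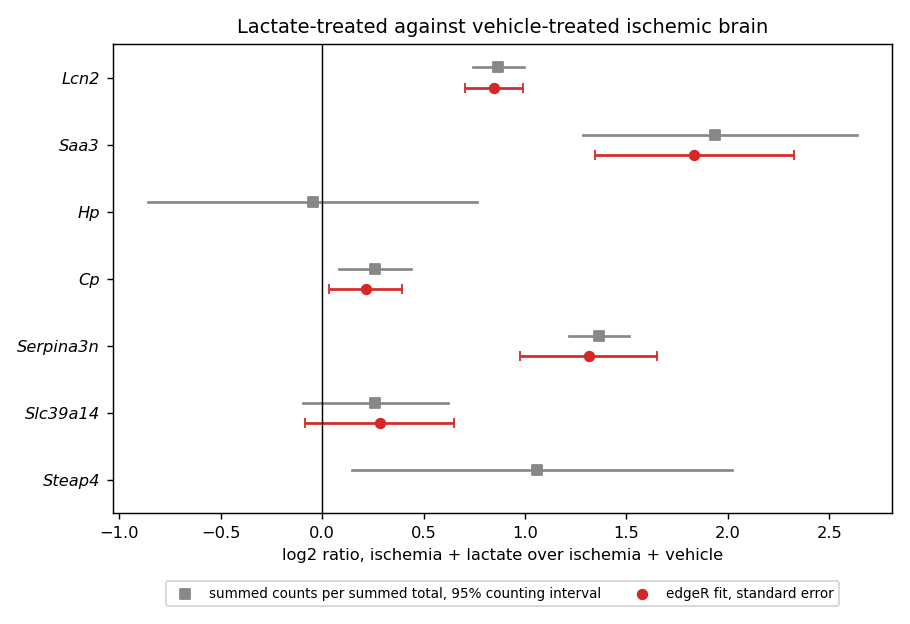
Log2 ratio of lactate-treated to vehicle-treated ischemic brain, with grey squares for summed counts (bars: 95% counting interval) and red circles for the edgeR fit over 8 mice (bars: standard error). All genes but Hp lie to the right of 0, where Hp also lies without vehicle-treated mouse 3 (a ratio of 1.78, not drawn), and the counting intervals of Hp (0.552 to 1.70 as a ratio) and Slc39a14 (0.937 to 1.54) span it.

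Near relatives could share reads with some of these genes. In coding sequence Saa3 is 75.7% identical to Saa1 and 74.7% to Saa2, which encode the serum amyloids of the liver. Saa3 made up 0 of the counts of the 4 Saa genes in sham mice, 59.5% with vehicle and 92.9% with lactate. Saa1 held 4, 5 and 5 counts and Saa2 6, 12 and 2 counts in sham, vehicle and lactate, so these relatives did not follow Saa3. Serpina3n is 85.2% identical to Serpina3m and 85.0% to Serpina3c, and it took 100%, 92.6% and 96.2% of the counts of 7 Serpina3 genes. Serpina3f, Serpina3g and Serpina3i were listed at 0 in all sham mice and at 19, 13 and 9 counts with vehicle and 21, 10 and 12 with lactate. How reads that match several copies were assigned is not stated, so the low counts of these copies are uncertain. The ferroxidase Heph, a relative of Cp, held 27, 53 and 60 counts, and the zinc importers Slc39a8 and Slc39a12, relatives of Slc39a14, held 245, 157 and 147 counts and 453, 380 and 325 counts in the same order.

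Of 44 other acute-phase genes, 11 had no count in any mouse, among them C-reactive protein (Crp), hepcidin (Hamp) and serum amyloid P (Apcs), and 22 in all never exceeded 3 counts in a mouse. With vehicle, 2 of 11 genes tested rose, beside 1.29% of all genes, and their median log2 fold change was 0.47 against 0.0031 over all genes. With lactate over sham, 4 of 11 rose, beside 7.88%, and the median was 0.61 against -0.027. None fell in either comparison. The protease scavenger A2m and the lipopolysaccharide coreceptor Cd14 rose in both, in every mouse beyond the sham range.

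A2m was at 1.45, 1.11, 1.49 and 1.23 CPM in sham mice, 20.1, 22.0, 18.5 and 40.2 CPM with vehicle and 28.7, 52.0, 36.8 and 58.0 CPM with lactate. Its log2 fold change was 4.28 with vehicle (standard error 0.31, edgeR adjusted p = 2.04e-05) and 5.07 with lactate (0.27, edgeR adjusted p = 1.21e-07). Cd14 was at 2.11, 2.45, 2.31 and 1.97 CPM in sham mice, 7.87, 39.1, 61.1 and 18.2 CPM with vehicle and 15.6, 37.96, 25.1 and 17.5 CPM with lactate. It rose by 3.85 on the log2 scale with vehicle (standard error 0.54, edgeR adjusted p = 0.00243) and by 3.46 with lactate (0.30, edgeR adjusted p = 8.66e-06), and lactate over vehicle gave -0.40 (0.49, edgeR adjusted p = 0.840). Serping1, the C1 inhibitor of complement, rose with lactate, by 1.01 (0.23, edgeR adjusted p = 0.0128). With vehicle its log2 fold change was 0.31 (0.29, edgeR adjusted p = 0.687).

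Ttr, the thyroxine carrier transthyretin, rose by 3.25 on the log2 scale with lactate (standard error 0.36, edgeR adjusted p = 9.51e-05), and it lost this call in a fit of all 12 mice. Vehicle-treated mouse 2 held 1817 CPM of Ttr against at most 16.2 CPM in any other mouse. The choroid plexus markers Folr1 and Otx2 were also highest there, at 14.1 and 2.33 CPM. All 8 choroid plexus markers together, Ttr among them, summed to 1.77 to 5.93 CPM in sham, 4.55 to 1843 CPM with vehicle and 10.8 to 19.6 CPM with lactate, and only 2 of them could be tested with vehicle and 1, Ttr, with lactate, which was called. In that mouse Serpina3n and Slc39a14 were the lowest of the vehicle-treated mice and the other 5 genes lay inside the range of the group. The part of choroid plexus tissue in these values was not tested. Without the mouse, 3 of the 7 genes were called higher with vehicle and 0 between the ischemic groups, as with it, beside 1.03% and 0% of all genes.

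In the direct comparison of lactate with vehicle, 0 of 13 acute-phase genes tested were called by edgeR and 0 by DESeq2, with a median of -0.11 against -0.029 over all genes. At an unadjusted p under 0.05, A2m and Serping1 were higher with lactate, with log2 fold changes of 0.78 (standard error 0.28) and 0.69 (0.25), and Ttr was lower, with vehicle-treated mouse 2 the only vehicle-treated mouse above all lactate-treated mice.

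**Figure D3:**
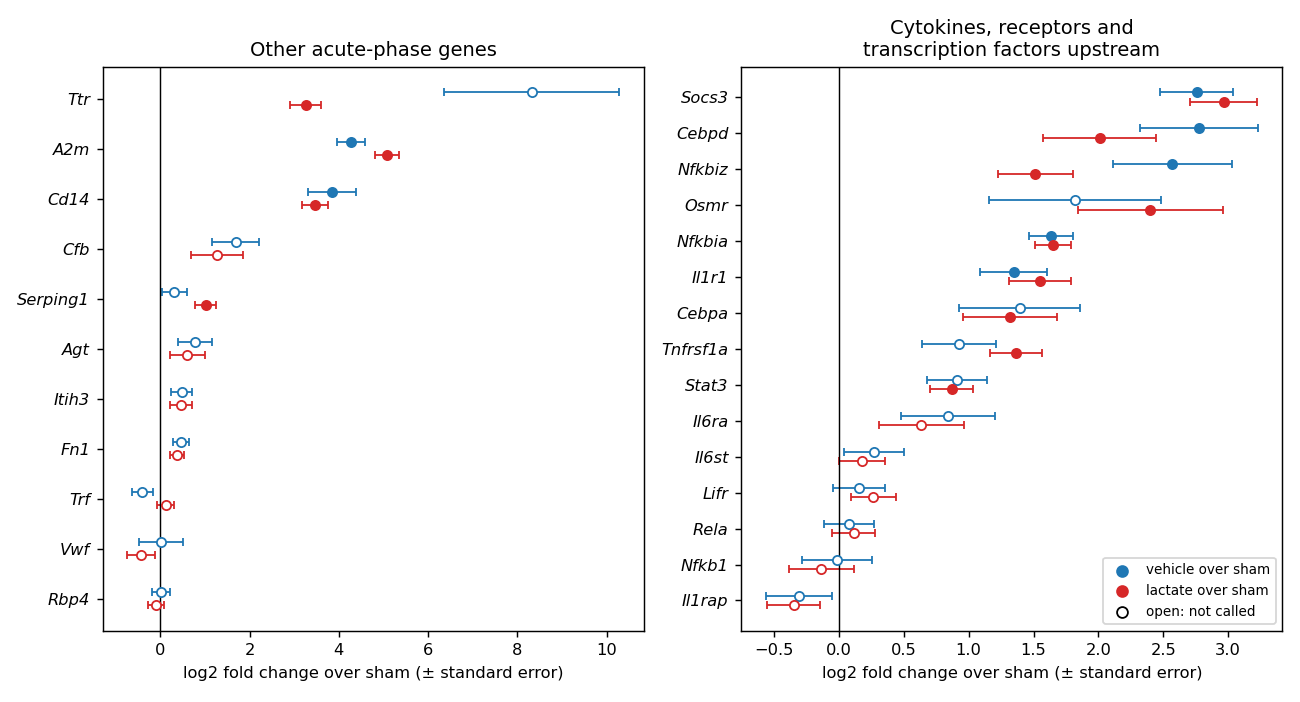
Log2 fold change over sham (x axis, bars: standard error) of the other acute-phase genes tested (left) and of the cytokine receptors, transcription factors and feedback genes tested (right), blue for vehicle and red for lactate. Filled points were called, as were A2m, Cd14, Socs3, Nfkbia, Cebpd, Nfkbiz and Il1r1 in both comparisons.

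The cytokines that induce acute-phase genes were near the limit of counting. Il6 held 1 count over all sham mice, 0 to 5 per vehicle-treated mouse and 1 to 5 per lactate-treated mouse, and Il6, Il1a, Il1b, Tnf, Osm, Lif and Cebpb were too low to be tested against sham. With vehicle 5 of the 15 genes tested rose, beside 1.29% of all genes, and with lactate 9 of 15, beside 7.88%, with medians of 0.93 and 1.32, and 0 fell. Earlier results of these data were known when this list was chosen. Socs3, the feedback inhibitor of STAT3 signaling, rose by 2.76 with vehicle (standard error 0.28, edgeR adjusted p = 0.000139) and by 2.96 with lactate (0.26, edgeR adjusted p = 9.69e-06). The NF-kB inhibitor Nfkbia rose by 1.63 (0.17, edgeR adjusted p = 0.000157) and 1.65 (0.14, edgeR adjusted p = 8.20e-06).

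Cebpd, a C/EBP factor of the acute phase, rose by 2.77 with vehicle (standard error 0.46, edgeR adjusted p = 0.00812) and by 2.01 with lactate (0.44, edgeR adjusted p = 0.0101). It was below 1 CPM in every sham mouse, so it passed the filter on low counts only through the ischemic mice. Nfkbiz, a nuclear cofactor of NF-kB needed for Lcn2 induction in several cell types, rose by 2.57 (0.46, edgeR adjusted p = 0.0145) and 1.51 (0.29, edgeR adjusted p = 0.00508). The interleukin-1 receptor Il1r1 rose by 1.35 (0.26, edgeR adjusted p = 0.0222) and 1.55 (0.24, edgeR adjusted p = 0.00149). The calls of Nfkbiz with vehicle were lost without sham mouse 1, 2 or 3, and those of Il1r1 without sham mouse 1, 2 or 3 or vehicle-treated mouse 2. With lactate, Stat3 (0.87, standard error 0.17), the oncostatin M receptor Osmr (2.40, 0.56), the tumor necrosis factor receptor Tnfrsf1a (1.36, 0.20) and Cebpa (1.32, 0.36) also rose, with edgeR adjusted p values of 0.00564, 0.0142, 0.00114 and 0.0304. The call of Osmr was lost without sham mouse 3, and that of Cebpa in 6 of 14 alternatives. Osmr was below 1 CPM in sham mice 2, 3 and 4, so it too passed the filter only through the ischemic mice. These genes were not called with vehicle, but Cebpa gave 1.39 (0.47) there. Stat3 was at 35.8, 16.7, 28.5 and 22.4 CPM with vehicle, against 19.1, 29.1, 25.6 and 27.2 CPM with lactate. For Osmr and Tnfrsf1a the highest mouse was lactate-treated. Between the ischemic groups 0 of 16 genes of the list were called by edgeR, with 1, Nfkbiz, lower at an unadjusted p under 0.05. The log2 fold change between lactate and vehicle was 0.19 (standard error 0.19) for Socs3 and 0.0011 (0.14) for Nfkbia, next to 0.85 for Lcn2 and 1.31 for Serpina3n. The differences between these values were not tested.

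Of 22 receptors and partners of the 7 proteins, 14 were tested. With vehicle 1 rose and 0 fell, and with lactate 2 rose and 2 fell, with medians of 0.18 and 0.17 against 0.0031 and -0.027 over all genes. Of all genes, 1.29% rose and 0.182% fell with vehicle, and 7.88% rose and 2.51% fell with lactate. Hmox1, the heme oxygenase that works downstream of haptoglobin uptake, rose by 2.43 with vehicle (standard error 0.32, edgeR adjusted p = 0.00147) and 3.36 with lactate (0.24, edgeR adjusted p = 1.17e-06), and its 3 groups were without overlap. Lactate over vehicle gave 0.93 (0.24, edgeR adjusted p = 0.460), and by edgeR 0 of the 14 were called in that comparison, with Hmox1 higher and Tfrc lower at an unadjusted p under 0.05. With lactate over sham, the serum amyloid receptor Scarb1 rose by 0.66 (0.20, edgeR adjusted p = 0.0438), the iron exporter Slc40a1 fell by 1.28 (0.38, edgeR adjusted p = 0.0430) and the transferrin receptor Tfrc fell by 0.62 (0.16, edgeR adjusted p = 0.0251). These 3 calls were lost in 9, 8 and 6 of 14 alternatives. The lipocalin receptor Slc22a17 was abundant in all groups, at 432 to 766 CPM in sham mice, and was not called.

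Markers of other cells also differed from sham. The neutrophil markers S100a8 and S100a9 rose in both ischemic groups, by 4.40 (standard error 0.65, edgeR adjusted p = 0.00360) and 5.34 (0.95, edgeR adjusted p = 0.0143) with vehicle, and by 3.83 (0.36, edgeR adjusted p = 2.26e-05) and 4.78 (0.62, edgeR adjusted p = 0.000417) with lactate. S100a9 lost its call with vehicle without sham mouse 2, 3 or 4, and without sham mouse 1, which held 9 of the sham counts, its values were 7.21 and 6.64. Retnlg rose with lactate, by 4.46 (0.74, edgeR adjusted p = 0.00235), and between lactate and vehicle it gave -0.02 (0.64). Sham mouse 1 held all 4 sham counts of Retnlg. The 7.62 fitted without that mouse is over 0 sham counts, so it has no defined size. In all, 2 of the 4 neutrophil markers tested rose with vehicle and 3 of 5 with lactate, beside 1.29% and 7.88% of all genes. S100a9 reached 1 CPM only in sham mouse 1 and Retnlg in no sham mouse, so both passed the filter only through the ischemic mice. Their p values and these shares depend on that. Cxcr2 and Csf3r, also tested, gave 0.38 (0.25) and -0.97 (0.80) with vehicle and -0.28 (0.32) and -0.06 (0.54) with lactate, and were not called. Between lactate and vehicle 0 of 5 were called by edgeR, 0 also at an unadjusted p under 0.05, and the median was -0.57, with -0.58 (0.53) for S100a8 and -0.57 (0.61) for S100a9. The summed level of the 12 neutrophil markers was 3.34 to 7.65 CPM in sham mice, 12.3 to 77.9 CPM with vehicle and 20.8 to 44.4 CPM with lactate. Ltf and Elane, granule genes of maturing neutrophils, were at 0 in all mice, and Ngp and Camp never exceeded 2 counts.

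Among the vehicle-treated mice, Hp, S100a8, S100a9 and Retnlg were all highest in mouse 3, followed by mouse 2. S100a8 was at 6.09, 26.2, 36.1 and 5.72 CPM in vehicle-treated mice 1 to 4, and Hp ranked these mice the same way, 3 above 2 above 1 above 4. With lactate S100a8 was at 10.5, 11.98, 19.6 and 7.77 CPM, again in the order of Hp, although Hp there rested on 6 to 8 counts per mouse. S100a9, at 8.92, 6.11, 16.5 and 7.30 CPM, and Retnlg, highest in mouse 2, did not have that order with lactate. Lcn2 did not follow this order: with vehicle its highest mouse was number 4, which had the lowest S100a8, and its lowest was number 3, which had the highest. With lactate Lcn2 placed mouse 1 above 2 above 3 above 4, so mouse 4 was the lowest in both genes. S100a8 was chosen for this comparison after its values were seen, and the part of neutrophils in these results was not tested.

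**Figure D4:**
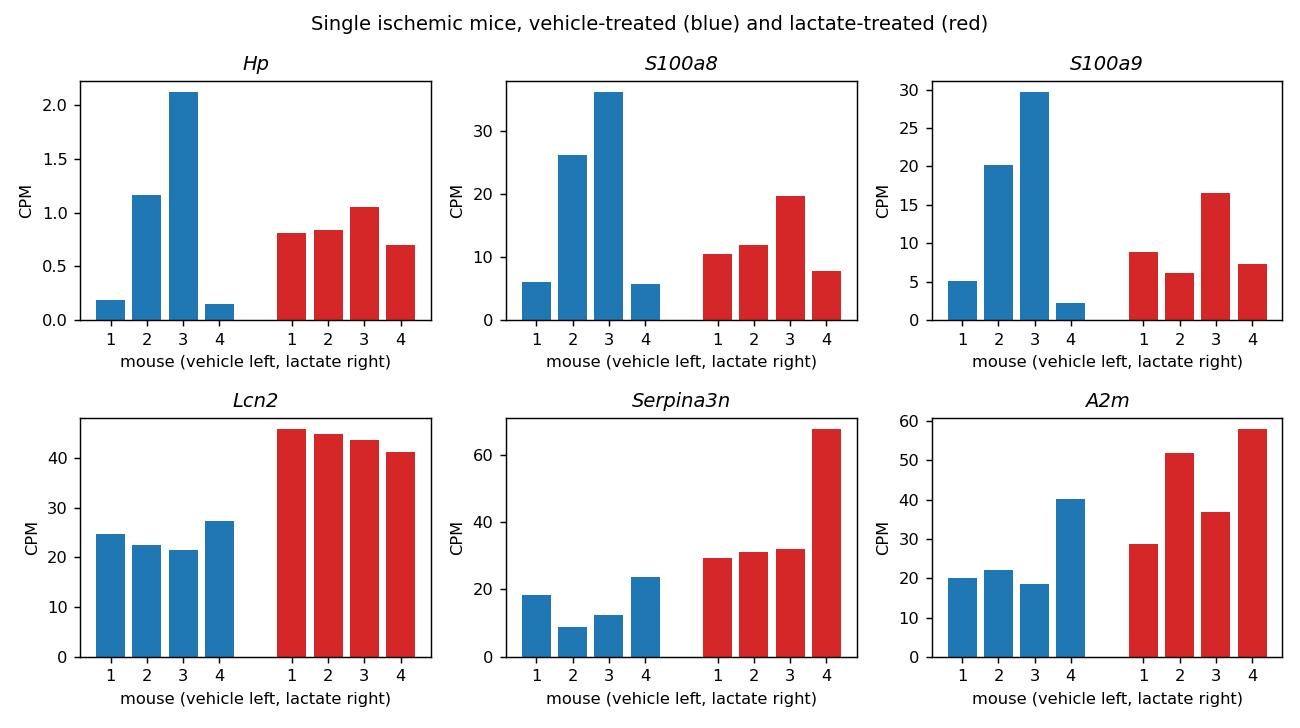
CPM of 3 of the 7 genes (Hp, Lcn2, Serpina3n) and of S100a8, S100a9 and A2m in single ischemic mice, numbered 1 to 4, with blue bars for vehicle and red bars for lactate. Hp and S100a8 peak in vehicle-treated mouse 3 at 2.12 and 36.1 CPM, whereas Lcn2 varies little within each group.

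The astrocyte marker Gfap, which encodes the glial filament protein, rose by 1.64 with vehicle (standard error 0.31, edgeR adjusted p = 0.0201) and 2.47 with lactate (0.18, edgeR adjusted p = 2.01e-06), the former without a call when sham mouse 2, 3 or 4 was left out. Lactate over vehicle gave 0.80 (0.28, edgeR adjusted p = 0.496), which passed the unadjusted limit. Gfap was the only one of 8 astrocyte markers called, and their summed level, most of it Aldoc, was 6283 to 10143 CPM in sham, 9717 to 11578 CPM with vehicle and 9727 to 11555 CPM with lactate. Gfap was at 255.5, 91.7, 105 and 184 CPM in vehicle-treated mice and 248, 262, 289 and 334 CPM in lactate-treated mice, which placed lactate-treated mouse 4 first and mouse 1 last, as did Serpina3n and Cp. In the vehicle-treated mice Gfap placed mouse 1 first and mouse 2 last, as did Slc39a14, while Serpina3n and Cp placed mouse 4 first, and with lactate Slc39a14 placed mouse 3 first. Lcn2 ran opposite to Gfap with lactate, with mouse 1 first and mouse 4 last, although its mice were close together. With vehicle Lcn2 placed mouse 4 first and mouse 3 last. Whether these genes come from astrocytes was not tested.

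Of 10 hepatocyte markers 2 were tested and 0 called, the summed level was 3.43 to 5.18 CPM in sham, 3.28 to 8.22 CPM with vehicle and 3.95 to 5.54 CPM with lactate, and Alb, Ahsg and Serpina1a, which define liver, held 1, 0 and 0 counts over the 12 mice. Red cell markers summed to 560 to 633 CPM in sham mice, 333 to 500 CPM with vehicle and 375 to 499 CPM with lactate, and Hbb-bt fell with lactate, by 0.61 (standard error 0.13, edgeR adjusted p = 0.0109), a call lost in 3 of 14 alternatives. With vehicle Hbb-bt gave -0.62 (0.15, edgeR adjusted p = 0.0750), which was not called, and lactate over vehicle gave -0.0026 (0.17). Of 8 microglial markers, with sums of 237 to 252 CPM in sham, 143 to 225 CPM with vehicle and 220 to 244 CPM with lactate, P2ry12 fell in both comparisons, by 1.01 (0.20, edgeR adjusted p = 0.0275) with vehicle and 1.1 (0.19, edgeR adjusted p = 0.00265) with lactate, and Cx3cr1 fell with vehicle, by 1.21 (0.23, edgeR adjusted p = 0.0201). The vehicle calls of P2ry12 and Cx3cr1 were lost in 6 and 4 of 14 alternatives. Of 8 endothelial markers, with sums of 157 to 163, 139 to 188 and 177 to 221 CPM in the same order, Ly6c1 rose by 0.86 (0.13, edgeR adjusted p = 0.00136), while Slco1a4 fell by 1.70 (0.24, edgeR adjusted p = 0.000730) and Tie1 by 1.22 (0.30, edgeR adjusted p = 0.0198), all with lactate. The call of Tie1 was lost without sham mouse 1 or lactate-treated mouse 2. Of 6 meningeal fibroblast markers, with sums of 35.5 to 41.5, 30.4 to 49.7 and 23.2 to 46.5 CPM, Col3a1 rose with lactate, by 1.37 (0.38, edgeR adjusted p = 0.0318), a call lost in 5 of 14 alternatives. Of 8 neuronal markers 0 were called by edgeR in any comparison, 0 also at an unadjusted p under 0.05, and these marked brain tissue in all groups, with sums of 3457 to 5363 CPM.

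Genes with the pattern most like each of the 5 genes above a mean of 1 CPM were found by Pearson's r of log2(CPM + 1) over the 12 mice, among 13142 genes, as a description. For Lcn2 these were Ctla2a (r = 0.985), A2m (0.984), Sgk1 (0.982), Socs3 (0.979) and Timp1 (0.976). For Saa3 they were Vim (0.977), Eif4ebp1 (0.964), Ms4a6d (0.960), Pdlim4 (0.955) and Crot (0.952). Serpina3n was nearest to Fcgr3 (0.976), Scgb3a1 (0.954), Pdlim4 (0.953), Ms4a6c (0.952) and Ccl12 (0.946), and Cp to Gm49392 (0.947), Hmgb2 (0.942), A2m (0.941), Lgals3 (0.940) and Hmox1 (0.936). Slc39a14 had lower values, from 0.921 for Cfap298 through Slc2a3, Eif3c and Zfr to 0.900 for Tle3. Genes are compared within the same libraries and across the step from sham to ischemia, which raises r. Over the 8 ischemic mice alone, 0 of the 5 nearest genes of Lcn2, Cp and Slc39a14 and 2 of 5 of Saa3 and Serpina3n were the same.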

How the data were processed

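Brain RNA of 12 mice was analysed, 4 per group, with groups taken from the sample labels. Per the labels, total RNA was extracted with TRIzol and made into PCR-amplified cDNA libraries, and per the study they were sequenced on a PromethION. The authors filtered reads, removed ribosomal RNA, and mapped full-length reads with minimap2. The submitters' processing notes name GRCm38 and DESeq 1.10.1, and the column headings name edgeR. The counting step, the annotation release and the use of strand are not given in the sources used here. The deposited count values are whole reads per gene without normalization, and the authors deposited CPM as these counts over the total of each mouse. Deposited P values and log2 fold changes of the authors' comparisons were not used. The 4 lines without a gene were left out. Totals ranged from 6815920 to 10677224 counts per mouse, so 3 counts correspond to 0.281 to 0.440 CPM.

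Groups were compared in pairs with the quasi-likelihood test of edgeR 4.0.16 (R 4.3.3), with TMM factors and only the 8 mice concerned, for genes reaching 1 CPM in 4 or more of them. Calls required a Benjamini-Hochberg adjusted p under 0.05 over all genes tested and a change of 1.5-fold or more, and standard errors were derived from the F statistic. Each sample was taken as a separate mouse, as the study describes its groups. Ratios of genes with few counts are of summed counts per summed total with exact Clopper-Pearson intervals, which leave out the variation between mice. Alternatives were DESeq2 1.42.0, RLE size factors, no filter, one fit of 12 mice, the replicate number as a block, unadjusted p, a fold change of 2, genes with an Ensembl identifier only, and leaving out each mouse. The repeat of these for single genes of the other lists, and count ratios with a mouse left out, were chosen after seeing the data. Fits were tested on simulated data. Gene positions are from GENCODE release M21 on GRCm38. Other tools were Biopython 1.88, matplotlib 3.10.9, scipy 1.17.1, numpy 2.4.6 and pandas 2.3.3 in Python 3.11.15.

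The 7 genes and the lists of acute-phase genes, inducers, partners and cell markers were chosen with earlier results of these data known. The genes named are the 7, their near relatives, list genes called in at least 1 comparison, and the 5 genes most like each of those with a mean of at least 1 CPM. Other genes named, such as Il6, Folr1, Otx2, Alb, Ltf and Slc22a17, were chosen after their values were seen.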

Additional observations from a re-analysis of the deposited data

Results flagged for a closer look

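Among 71 combinations of 24 genes and a group, 6 held a mouse apart from the other 3 by more than Dixon's 95% limit, where chance gives about 1 in 20 for values that are not near 0. Any nonzero mouse beside 3 at 0 passes that limit, as in the sham groups of Lcn2 and Hp. Lcn2 was at 0.247 CPM in sham mouse 4, with 2 counts, and at 0 in the other sham mice. Hp was at 0.132 CPM in sham mouse 1, with 1 count, and at 0 in the others. Serpina3n was at 67.6 CPM in lactate-treated mouse 4, with the next at 32.0 CPM. A2m was at 40.2 CPM in vehicle-treated mouse 4, with the next at 22.0 CPM. Ttr was at 1817 CPM in vehicle-treated mouse 2, with the next at 13.8 CPM, and at 7.78 CPM in lactate-treated mouse 2, below the next at 15.4 CPM. No cause of these gaps was tested.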

How the results depend on the processing

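No fitted fold change of Lcn2, Saa3, Cp, Serpina3n or Slc39a14 changed sign under the alternatives run, and Hp and Steap4 were not compared this way. Of the counts of genes called, 91 stayed within 1.5 times the value given, and 5 did not. With unadjusted p values, 4 acute-phase genes were called with vehicle over sham in place of 2, and in lactate over vehicle 3 of the 7 genes were called in place of 0 and 3 acute-phase genes in place of 0. DESeq2 called 2 of the 7 genes in lactate over vehicle, and without a filter on low counts 9 acute-phase genes were called in lactate over sham in place of 4, as more genes were then tested. With a mouse left out, 2 to 3 of the 7 genes were called with vehicle over sham, 4 to 5 with lactate over sham and 0 with lactate over vehicle, and of the acute-phase genes 2 to 3, 4 to 5 and 0, while 0.598% to 2.23%, 5.47% to 8.35% and 0 to 0.00559% of all genes were called higher. Serpina3n was not called with vehicle without sham mouse 1, 2 or 4, and Slc39a14 was not called with lactate without sham mouse 1, 2 or 3 or lactate-treated mouse 2 or 3. The log2 fold change of Serpina3n between lactate and vehicle ranged from 0.94 to 1.56, that of Lcn2 from 0.79 to 0.91 and that of Saa3 from 1.51 to 2.16. The cause of these changes was not tested, other than the number of genes tested.

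Mouse numbers are shared between groups, but same-numbered mice did not deviate together, with correlations from -0.170 to 0.176 over 18134 genes, so the numbers were not taken as pairs. With the number as a replicate block, 3, 5 and 0 of the 7 genes and 2, 5 and 0 acute-phase genes were called with vehicle over sham, lactate over sham and lactate over vehicle, beside 1.05%, 8.41% and 0% of all genes called higher, and not every mouse correlated best with its own number. Of the 5 nearest genes by pattern, a pseudocount of 0.1 CPM kept 4 for Lcn2, 2 for Saa3, 4 for Cp, 3 for Serpina3n and 5 for Slc39a14. Depth limits Hp, Saa3 and Steap4, with at most 17, 29 and 11 counts in a mouse.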
